A study of Ictalurus furcatus with 60 samples.

Results

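Of 30 blue catfish males (Ictalurus furcatus), 9 gave sperm RNA profiles that were concentrated on fewer transcripts both before and after cryopreservation, and the effect of cryopreservation was measured within these 9 males. The males were chosen by measured values: the median over all genes stood below 8 CPM (counts per 1000000, by library total) in both libraries of a male, and both totals reached 2000000 counts. A low median means that more of the counts lie on the abundant genes. The rule kept 18 of 60 libraries, from males 5, 6, 8, 9, 12, 16, 22, 34 and 44, and it treats the libraries of a male alike, so that exchanging their treatment labels leaves the membership as it is. The median CPM and the depth chose the males, so their levels are given as a description.

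Hybrid catfish are farmed from crosses that use blue catfish sires, and the series was made to find sperm transcripts by which hatching could be predicted from stored sperm. In the fresh group the sperm went straight into a deep freezer, and in the cryopreserved group it first went through a cryopreservation procedure. Each group holds 1 library per male, the cells are given only as sperm, and no strain, age or further agent is given in the labels. The labels name the molecule as polyA RNA and the kit as one for ribosome-depleted total RNA, so the RNA fraction is uncertain.

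Mature sperm transcribe little or nothing, and most of the RNA they carry was made while the cells developed in the testis. Cryopreservation cools sperm in the presence of a protectant, and ice, osmotic stress and thawing can injure membranes and RNA. In bulk sperm, fewer cells of a type and less RNA per cell cannot be told apart. The gene identifiers of the deposited tables are not paired with names, and 0 of 33677 matched the 26870 genes of the RefSeq table of the blue catfish, so no gene can be given a function here and neither sperm markers nor those of other cells could be checked.

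Both libraries of the 9 males were concentrated, but by unequal amounts. Fresh libraries had their median gene at 2.20 to 6.70 CPM, with a middle value of 2.43 CPM, and cryopreserved libraries at 1.71 to 7.88 CPM, with a middle value of 3.64 CPM. In males 5, 16 and 22 it was higher after cryopreservation, at 7.88 against 3.87 CPM, 5.68 against 2.31 CPM and 7.07 against 2.43 CPM. In male 44 the fresh library was the higher of the pair, at 6.70 against 4.47 CPM. Males 6, 8, 9, 12 and 34 stood below 4 CPM in both libraries. The groups overlapped, and the log2 ratio of the median CPM, cryopreserved over fresh, was 0.30 ± 0.80 (SD, n = 9 males), higher in 5 males and lower in 4.

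At the limit of the rule, the cryopreserved library of male 5 lay just inside at 7.88 CPM and that of male 27 just outside at 8.75 CPM. By depth, the cryopreserved library of male 12 lay just inside with 2340524 counts and that of male 36 just outside with 1950886. Fresh libraries held 2620325 to 22472870 counts and cryopreserved ones 2340524 to 25876262, and 6 of the 9 cryopreserved libraries were the shallower of the pair. The log2 ratio of the totals was -0.33 ± 1.08 (SD, n = 9 males). The largest gap in depth was that of male 12, with 13170611 counts in the fresh library.

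**Figure D1:**
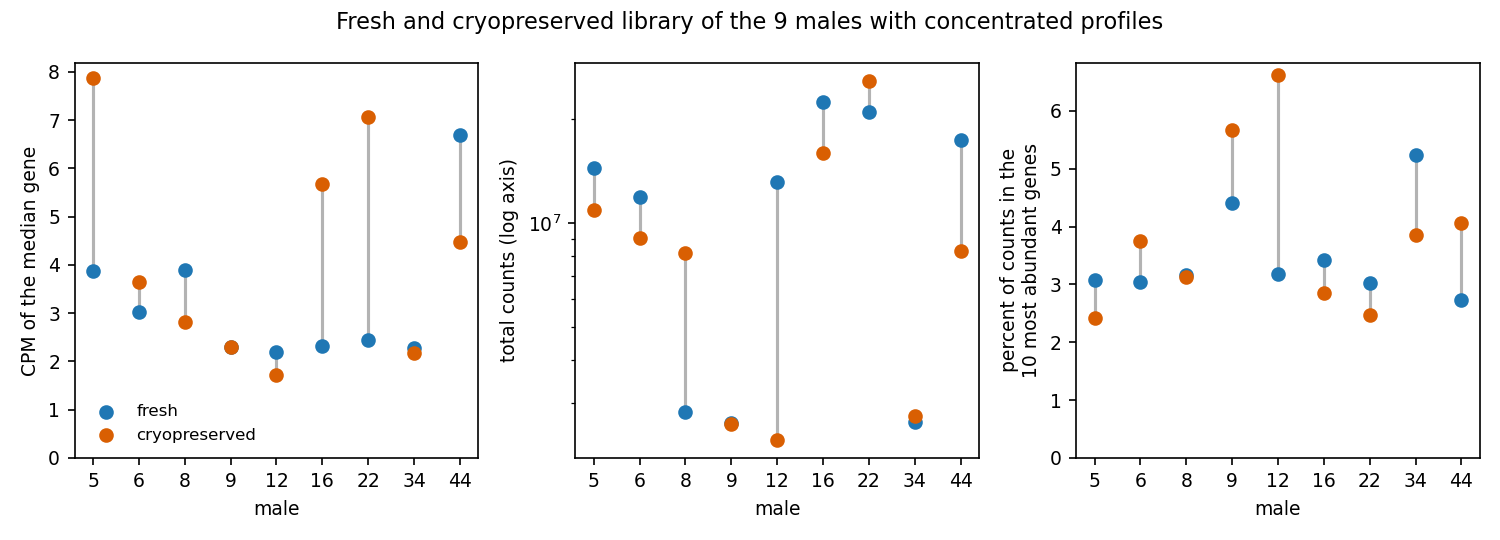
The CPM of the median gene, the total counts on a log axis and the share of counts (percent) of the top 10 genes are plotted for the fresh (blue) and the cryopreserved (orange) library of each of the 9 males, joined by a line. The median gene is higher after cryopreservation in males 5, 16 and 22 and lower in male 44, and the treatments overlap in every panel.

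The number of transcripts detected and the share of the most abundant ones did not pass the threshold between treatments. Fresh libraries had a count for 28790 ± 3527 genes and cryopreserved ones for 28970 ± 4547 (mean and SD over 9 males), with more genes after cryopreservation in 6 of 9 males (within-male exact permutation test, two-sided, p = 0.836). Depth differed within pairs and enters this number. With all libraries thinned to the total of the shallowest, the mean difference, cryopreserved minus fresh, was 1146 ± 2308 genes (SD, n = 9 males; within-male exact permutation test, two-sided, p = 0.191). The 10 most abundant genes held 3.48% ± 0.81 of a fresh library and 3.87% ± 1.44 of a cryopreserved one (SD, n = 9 each; within-male exact permutation test, two-sided, p = 0.473), with a higher share in 4 males. The smallest p that 9 males can give is 0.0039, and with the Benjamini-Hochberg adjustment over these 2 measures both exact permutation p-values were 0.836. Without male 34 the unadjusted exact permutation p-values were 0.758 for the genes detected and 0.227 for the top 10 share. Of the 33646 genes with a count in these 18 libraries, 10 were found only in fresh and 42 only in cryopreserved libraries, and no gene of these was in more than 3 fresh or 5 cryopreserved libraries.

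The males did not share one direction of difference, and male 34 stood farthest from the rest. Over 22649 genes, the difference between cryopreserved and fresh level (log2 CPM) of male 34 correlated below 0 with that of each of the other 8 males (Pearson r from -0.25 to -0.06), while 21 of the 28 pairs among those 8 males were above 0, with a median r of 0.09. The genes share depth, composition and scaling, so these values are a description. The strongest likeness lay among males 5, 16 and 22, with r of 0.75 to 0.78, the males with the largest upward shift of the median gene. Male 44, with the opposite shift, had r of -0.32 to -0.40 with them. Against the mean of the other 8 males r was -0.29 in male 34, -0.20 in male 44 and -0.07 in male 8, and 0.13 to 0.55 in the other 6 males. The labels of male 34 were not tested for an exchange, and the comparisons between treatments are given with and without it.

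How the difference ran over abundance also set the males apart. In males 5, 16 and 22 the 100 most abundant genes were lower after cryopreservation, by a median log2 difference of -0.51, -0.66 and -0.69, and the 7649 least abundant genes were higher, by 0.93, 0.93 and 1.07. In male 44 the same classes stood at 0.41 and -0.43, and in male 8 at 0.55 and -0.15. Males 6, 9, 12 and 34 showed smaller shifts, between -0.11 and 0.30 for the 100 most abundant genes and between -0.11 and 0.33 for the least abundant. The direction of the shift was thus not shared by the 9 males.

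**Figure D2:**
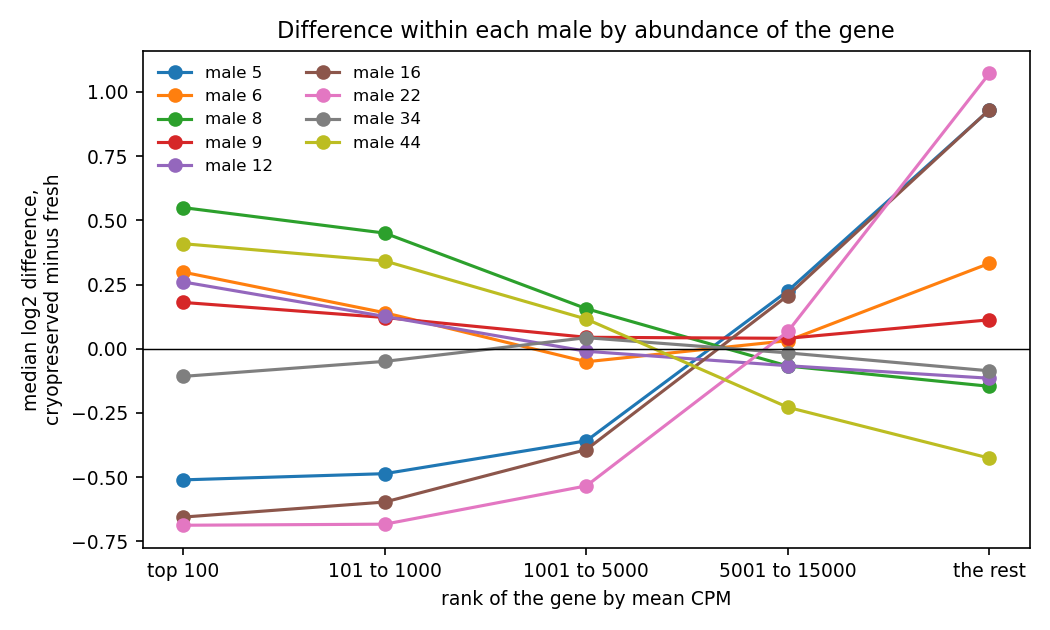
The median log2 difference between the cryopreserved and the fresh library of each male (lines) is plotted for 5 classes of genes ranked by mean CPM, of 100, 900, 4000, 10000 and 7649 genes. Males 5, 16 and 22 run from -0.51 or lower for the 100 most abundant genes to 0.93 or higher for the least abundant, and male 44 runs the other way, from 0.41 to -0.43.

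No share of an abundance class passed the threshold between treatments. The top 100 genes held 14.8% ± 1.93 of a fresh library and 15.0% ± 2.88 of a cryopreserved one, and the next 900 genes held 32.4% ± 2.42 and 31.4% ± 2.95 (SD, n = 9 each). The following 4000 genes took 34.3% ± 1.46 in fresh and 32.9% ± 1.13 in cryopreserved libraries, and this share was lower after cryopreservation in 8 of 9 males. Its unadjusted p was 0.039 (within-male exact permutation test, two-sided), and with the Benjamini-Hochberg adjustment over the 5 classes the exact permutation p was 0.20, so it did not pass the threshold. The 10000 genes after them took 16.0% ± 2.76 and 17.1% ± 3.96, and the remaining 7649 genes 2.07% ± 0.89 and 2.72% ± 1.38.

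No gene passed the test when all 9 males entered. With the male as block, edgeR's quasi-likelihood test on the counts called 0 of 22649 genes at an adjusted p (Benjamini-Hochberg) of 0.05 (0% of those tested), and none had one below 0.22. An unadjusted p under 0.05 was held by 3800 genes (16.8%), of which 2415 (10.7%) had a higher and 1385 (6.12%) a lower fitted level in cryopreserved sperm. With limma voom 0 genes were called and 7262 had an unadjusted p under 0.05, while DESeq2, which tested 33646 genes, called 545, of which 371 were higher and 174 lower. In all 9 males alike, 93 genes (0.411%) stood higher and 122 (0.539%) lower in the cryopreserved library. For 0 genes (0%) did the CPM of the 2 groups fail to overlap.

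The interval of the fold change was wide for low genes. It excluded a 2-fold difference in both directions for 96.0% of the 100 most abundant genes, 96.1% of the class of 4000 genes, 73.4% of the class of 10000 and 17.9% of the rest (nominal 95% interval). A fitted difference of 2-fold or more was held by 1685 genes, 1657 of them higher in cryopreserved sperm, and 1248 of the 1685 belonged to the least abundant class, with a median level of 2.97 CPM. In the shallowest library 3 counts amount to 1.28 CPM, so the levels of that class rest on few counts. The median log2 fold change was -0.03 among the 100 most abundant genes, -0.11 in the class of 4000 genes and 0.41 in the least abundant class. Without male 34 these medians were -0.10, -0.20 and 0.41.

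The fit was also made with the shift of the median gene as a term. This term was computed from the same counts, and the median CPM also chose the males, so the values of this fit are a description. With the log2 median CPM of the library as a covariate beside the male, the biological coefficient of variation was 24.0%, against 36.8% with the male alone and 51.6% without the block. The median log2 fold change of the least abundant class was then 0.10 and the number of genes with a fitted difference of 2-fold or more 326. This fit called 0 genes as well, with 3074 at an unadjusted p under 0.05, of which 2066 had one, in the same direction, with the male alone.

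The genes nearest to a call differed in nearly every male. They were picked by the smallest unadjusted p, a choice that favours agreement between males and large fitted differences. AUIFUG00000015849 had 7.12 to 23.4 CPM in fresh libraries, with a median of 9.16 CPM, and 12.4 to 34.1 CPM in cryopreserved libraries, with a median of 19.3 CPM. Its level was higher after cryopreservation in 9 of 9 males, from 3.42 times the fresh level in male 5 to 1.27 times in male 12. Mean levels were 12.2 ± 6.19 CPM before and 22.5 ± 6.70 CPM after the procedure (SD, n = 9 each), a fitted fold of 1.94 (95% interval 1.51 to 2.49), with an edgeR adjusted p of 0.22.

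The other gene with a higher fitted level was AUIFUG00000010964. It had 15.3 to 37.9 CPM in fresh libraries, with a median of 29.0 CPM, and 22.2 to 65.5 CPM in cryopreserved libraries, with a median of 54.6 CPM. It was higher in 8 of 9 males, and male 34 was the exception, with 27.3 CPM in its fresh and 22.2 CPM in its cryopreserved library. Its log2 fold change was 0.88 (standard error 0.17, edgeR adjusted p = 0.22).

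In the other direction, AUIFUG00000013556 had 15.2 to 34.3 CPM in fresh libraries, with a median of 26.4 CPM, and 9.40 to 22.5 CPM in cryopreserved libraries, with a median of 15.3 CPM. It was lower after cryopreservation in 9 of 9 males, and its log2 fold change was -0.77 (standard error 0.16, edgeR adjusted p = 0.22). AUIFUG00000012771 had 19.3 to 102.7 CPM in fresh libraries, with a median of 32.1 CPM, and 8.12 to 60.4 CPM in cryopreserved libraries, with a median of 16.0 CPM, and it too was lower in 9 of 9 males (log2 fold change -0.92, standard error 0.19, edgeR adjusted p = 0.22). Male 8 held its highest level in both libraries. For each of the 4 genes the CPM ranges of the treatments overlapped between males, so that the difference shows within the pairs. DESeq2 with all 9 males gave them adjusted p-values of 1.1e-04 to 0.0061, and over all alternatives their adjusted p-values ranged from 1.1e-04 to 0.64.

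**Figure D3:**
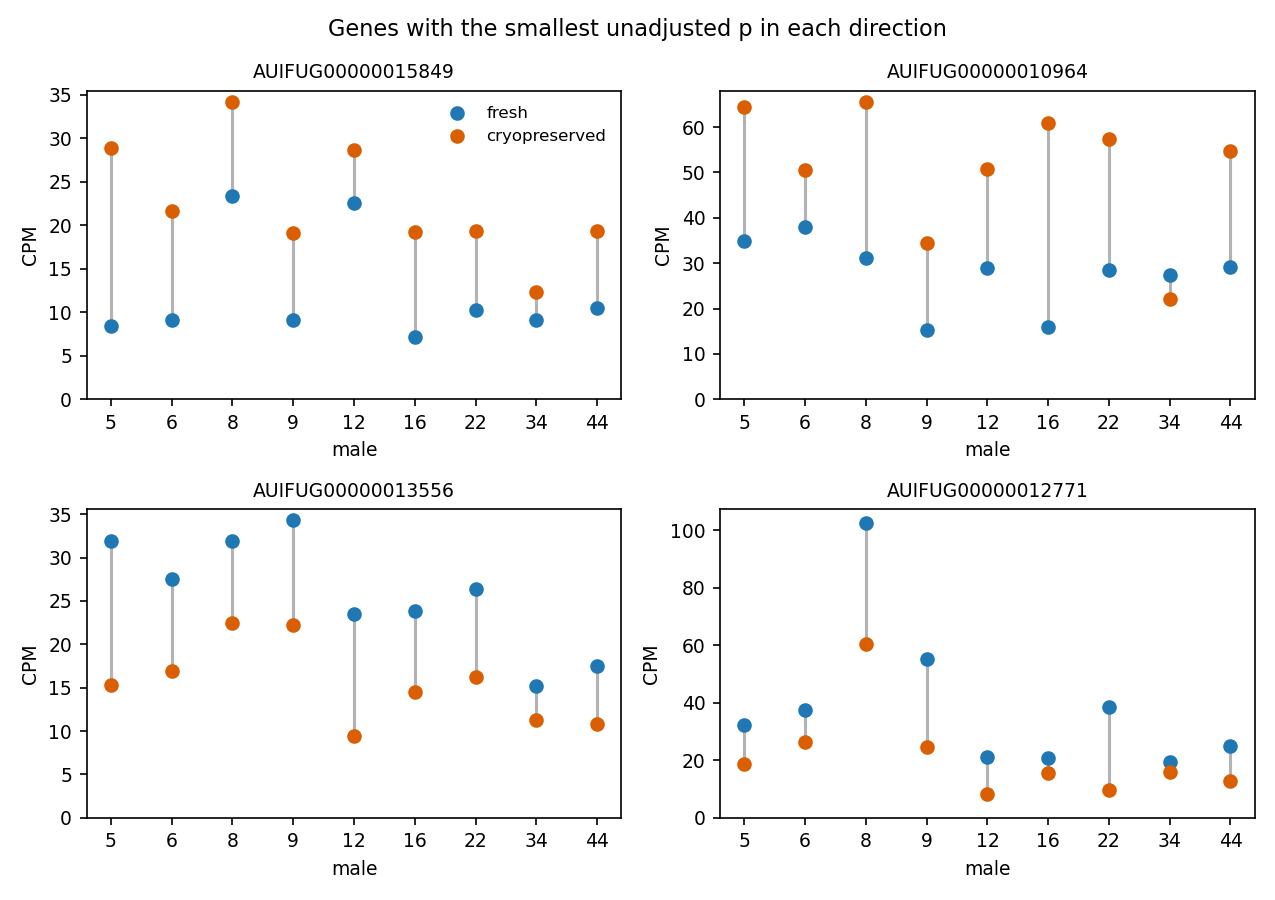
CPM is plotted for 4 genes, those of smallest unadjusted p, 2 per direction, for the fresh (blue) and the cryopreserved (orange) library of each of the 9 males, joined by a line. The top genes are higher after cryopreservation in 9 and 8 of 9 males, with male 34 as the exception for AUIFUG00000010964, and the bottom genes are lower in all 9.

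Without male 34 the same test called 611 of 23669 genes (2.58%). In the 8 remaining males 288 genes (1.22%) rose and 323 (1.36%) fell in cryopreserved sperm (edgeR quasi-likelihood test with Benjamini-Hochberg adjustment), with adjusted p-values down to 4.0e-04. Leaving out any other male gave 0 calls, with 1976 to 4892 genes at an unadjusted p under 0.05. In the 5 males kept by a higher limit of the totals, a set without male 34, the test called 0 of 27372 genes. Among the 611 genes were all 4 genes described above, with edgeR adjusted p-values of 0.013 to 0.022 and log2 fold changes of 0.93, 0.92, -0.89 and -1.07 in the same order. limma voom called 873 genes in the 8 males and 585 of the 611, DESeq2 called 2574 and all 611, and the fit with the median CPM as covariate called 1681 genes, 777 higher and 904 lower. These 3 fits were chosen after the effect of male 34 had been seen. Male 34 was itself singled out by these same data, and the adjusted p-values without it do not allow for that choice.

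The rising and the falling genes differed in level and size. The 288 rising genes of the 8 males had median levels of 10.5 CPM before and 23.1 CPM after the procedure. Their log2 fold changes had a median of 1.15, and 181 genes reached a 2-fold difference. The 323 falling genes were more abundant, with medians of 41.1 and 25.5 CPM, and changed less, with a median log2 fold change of -0.76 and 31 genes at 2-fold or more. The difference had the same direction in all 8 males for 183 of the rising and 264 of the falling genes, and over all genes tested it was higher in all 8 males for 405 (1.71%) and lower for 925 (3.91%). These 8 males also chose the genes, so agreement among them was favoured by the choice and is given as a description. The called genes lay in the middle of the abundance range. They made up 4.22% of the class of 4000 genes and 3.83% of the class of 10000, against 0% of the 100 most abundant genes and 0.53% of the least abundant class.

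Male 34 ran against both groups of genes. Of 611 genes, 65 (10.6%) differed in it in the direction of the other 8 males, and its median log2 difference was -1.36 over the rising and 0.47 over the falling genes. With edgeR these genes were called only with male 34 left out, and these same data singled it out. DESeq2 called the genes named above with all 9 males. A low share in male 34 was thus favoured by the choice and is given as a description. Its libraries held 2638494 and 2751295 counts and a median gene of 2.27 and 2.18 CPM. Male 9 resembled it in both respects, with 2620325 and 2610086 counts and a median gene of 2.29 and 2.30 CPM, and had 98.2% of the genes in the common direction. Since male 9 entered the fit, it was also set against the 143 genes called without males 9 and 34. Of these, 95.8% differed in male 9 in the direction of the others, against 6.29% in male 34. Male 34 was left out in choosing these genes too, so its low share was again favoured by the choice. The part of depth and profile in these shares was not tested.

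The other males were set in the same way against genes called without them and without male 34. The share in the common direction was 100% in male 5 (of 80 genes), 100% in male 6 (of 51 genes), 98.0% in male 12 (of 100 genes) and 96.5% in male 16 (of 142 genes). It was lower in male 8, with 70.5% of 776 genes, and in male 22, with 69.6% of 473 genes. Male 44 followed for 39.6% of 2585 genes. The median gene had shifted upward in male 22 and downward in males 8, 12 and 44. In these same lists male 34 stood between 0% and 18.7%. It was left out in making each of them, so a low share in it was favoured by the choice. Over all 22649 genes, the share higher after cryopreservation ran from 38.5% in male 44 to 57.9% in male 5. Higher genes made up 68 of the 80 genes set against male 5 and 44 of the 51 set against male 6. Males 5, 16 and 22 resemble each other, and each was held out with the others still in the fit, so these shares are a description.

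Males outside the 9 were measured on animals that took no part in choosing the genes. Among the 11 males with 1 concentrated and 1 even library or with shallow libraries, male 27, just outside the limit, had 98.0% of the 611 genes in the common direction, male 41 89.0%, male 11 88.7%, male 4 85.1% and male 28 83.0%. Males 35, 39, 3, 1, 36 and 2 had 9.00%, 17.0%, 21.3%, 28.0%, 30.6% and 31.3%. An exchange of treatment labels, which would turn such a share around, was not tested for these males either. The share was above 50% in 5 of the 6 males whose median gene was higher after cryopreservation. It was above 50% in 0 of the 5 males whose median gene was lower. The exception was male 36, with a median gene higher after cryopreservation by 0.40 on the log2 scale. In a pair of 1 concentrated and 1 even library, profile and treatment cannot be told apart. The part of the shift of the median gene in these shares was not tested.

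**Figure D4:**
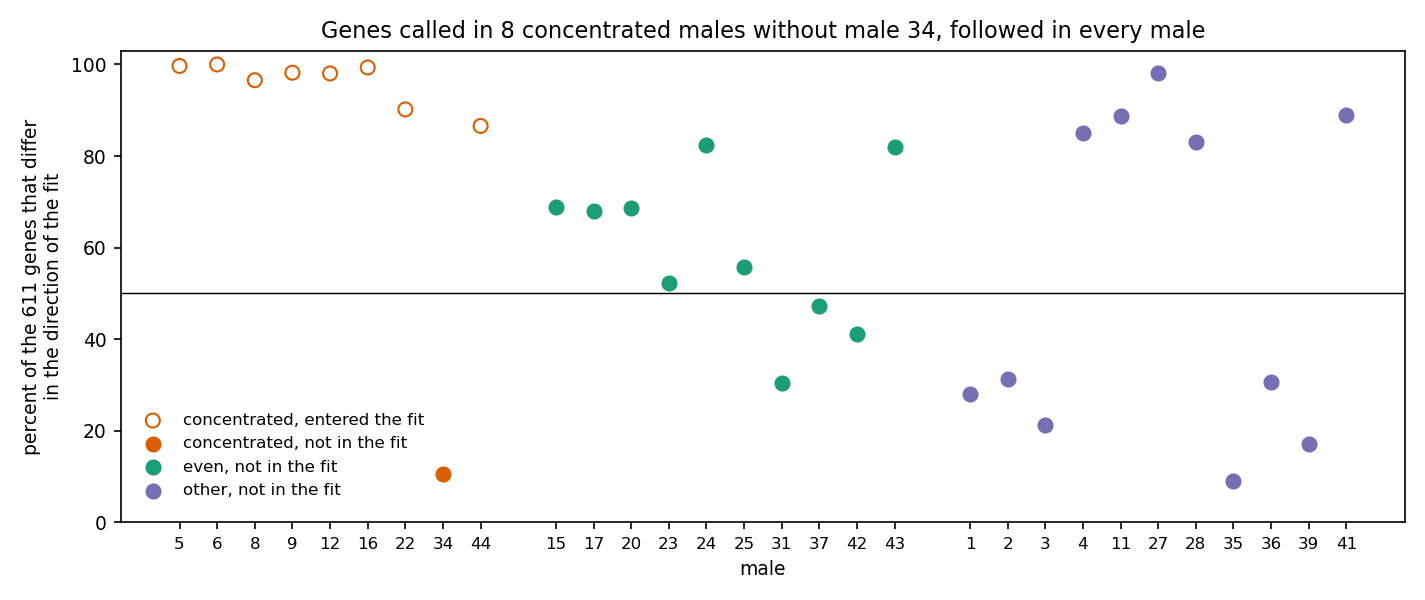
For each of the 30 males the percent of the 611 genes whose cryopreserved level differs from the fresh level in the direction of the fit is plotted, by class of male, with open circles for the 8 males that entered the fit. Male 34 stands at 10.6%, the 10 even males between 30.4% and 82.3%, and the other 11 males lie either above 80% or below 40%.

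In the 10 males with even profiles in both libraries (a median gene of 8 CPM or more and 2000000 counts or more), most of the 611 genes had the same direction and small differences. The 288 genes had a median log2 fold change of 0.06 there, with 224 at a higher and 64 at a lower fitted level, and the 323 genes one of -0.15, with 24 higher and 299 lower. Over all 33331 genes tested in even males the median was -0.01, with 15941 higher and 17390 lower. None of these genes was called in even males, where the same test called 0 of 33331 genes (0%), and 7.17% had an unadjusted p under 0.05, 2391 genes in all. By male, 30.4% to 82.3% of the 611 genes differed in the common direction, and 7 of 10 males lay above 50%. The highest shares were in males 24 and 43 (82.3% and 82.0%), whose log2 ratio of the median CPM was 0.17 and 0.09. The lowest, in males 31 and 42 (30.4% and 41.1%), came with ratios of -0.0019 and -0.18. Male 37 (47.3%, ratio 0.0089) and males 23 and 25 (52.4% and 55.8%, ratios -0.02 and -0.07) went the other way. The part of this shift in the shares was not tested.

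The difference between concentrated and even males was then tested for every gene. In one fit of all 19 males with the male as block, the effect of cryopreservation differed for 12 of 33367 genes (0.036%; edgeR, adjusted p = 0.040 to 0.042), and in all 12 it was the more positive in concentrated males. An unadjusted p under 0.05 was held by 7198 genes (21.6%). The fit kept 10718 genes that pass the filter on low counts only with the even males, and 5 of the 12 called genes are among them. With only the 22649 genes that pass in concentrated males alone, an alternative chosen after seeing the data, 6 genes were called. The 12 genes were low in concentrated males, with mean levels of 0.01 to 8.46 CPM in fresh and 0.43 to 19.1 CPM in cryopreserved libraries. In even males they were higher, with 1.69 to 79.5 CPM in fresh and 1.82 to 79.0 CPM in cryopreserved libraries. The classes were set by the median CPM, so this contrast in level was favoured by the choice of males and is a description. The 12 genes were higher after cryopreservation in 6 to 9 of the 9 concentrated males.

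This count turned on single males. It was 1502 without male 34, 6704 without male 44, 276 without male 8, 5 without male 12, 1 without male 22 and 0 without male 5, 6 or 16, and it stayed at 12 without male 9. The fit also shares 1 estimate of spread between classes that differ in it, since the biological coefficient of variation was 36.8% in concentrated and 21.2% in even males when each was fitted alone. With a quality weight for each class in limma voom, an alternative chosen after seeing the data, 0 genes were called and 6182 had an unadjusted p under 0.05.

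Of the 4 genes described by their identifiers, 3 had a log2 fold change between -0.03 and 0.04 in even males. The 4 genes were picked by their unadjusted p in concentrated males, which favours a larger difference there and a contrast with even males. In even males AUIFUG00000015849 stood at 27.9 ± 6.70 CPM before and 28.9 ± 5.63 CPM after the procedure, and AUIFUG00000010964 69.0 ± 10.5 and 72.7 ± 7.66 CPM (SD, n = 10 each). Their levels there were thus above those of both treatments in concentrated males, a contrast that the rule on the median CPM favours. AUIFUG00000013556 had 23.5 ± 2.28 and 23.8 ± 3.55 CPM, and its effect differed between the classes by -0.90 on the log2 scale with a standard error of 0.21 (edgeR adjusted p = 0.059), just short of the threshold. AUIFUG00000012771, at 7.05 ± 3.28 CPM in fresh and 4.58 ± 1.61 CPM in cryopreserved even libraries, differed there by -0.61 on the log2 scale (standard error 0.25), and the difference between the classes had an edgeR adjusted p of 0.45.

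The most abundant transcripts of concentrated sperm were much the same before and after cryopreservation. The top 100 lists of the treatments, by mean level, shared 93 genes, 93% of each list, and 77 genes in fresh and 74 in cryopreserved sperm had a mean of 1000 CPM or more. The leading transcript stood at 3797 ± 566.1 CPM before and 3661 ± 580.7 CPM after the procedure, the second 3499 ± 354.5 and 3757 ± 1069 CPM, and the third 3427 ± 478.7 and 3691 ± 1129 CPM (SD, n = 9 each). By log2 CPM after TMM scaling, each of the 3 was higher after cryopreservation in 5 of 9 males, with edgeR adjusted p-values of 0.89 to 0.93. The leading transcript differed by -0.71, -0.72 and -0.87 on the log2 scale in males 5, 16 and 22, and by 0.52 in male 6, whose median gene was also higher after cryopreservation.

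The transcripts ranked 4 and 5 by mean level were abundant in 4 of the 9 males only, at 1000 CPM or more in 7 of 18 libraries. The first of them had 9498 CPM in the fresh and 13269 CPM in the cryopreserved library of male 9, 9838 and 2264 CPM in male 34, 1363 and 16497 CPM in male 12, and 4668 and 9.54 CPM in male 8. In males 5, 6, 16, 22 and 44 it had 5.53 to 97.1 CPM in both libraries. The other had nearly the same counts in the libraries where both were high, and equal counts in 2 of them, 13181 in the fresh library of male 8 and 38612 in the cryopreserved library of male 12. Whether the same reads were counted for both genes cannot be told from the tables, so they may not be separate measurements. The mean log2 fold change of the first, 0.53 with a standard error of 0.81 (edgeR adjusted p = 0.74), says little, since the males differed so widely.

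Among concentrated males these transcripts were high in the shallow libraries. All 6 concentrated libraries with 2823599 counts or fewer had 2264 CPM or more of the first transcript, and the fresh library of male 12, at 13170611 counts, was the only deeper one above 97.1 CPM. Over the whole series 15 of 60 libraries reached 1000 CPM, 7 of them concentrated, 1 even and 7 of other males, with up to 45463 CPM in the cryopreserved library of male 36. Outside the 9 males the fresh library of male 39 (2258679 counts) had 158 CPM and the cryopreserved library of male 35 (2044890 counts) 420 CPM, while the fresh libraries of male 11 (6165072 counts) and male 15 (5166699 counts) had 6727 and 2703 CPM. The part of depth in this level was not tested. Of the 154 genes that reached 1000 CPM in a concentrated library, 6 were under 100 CPM in another, these 2 included.

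**Figure D5:**
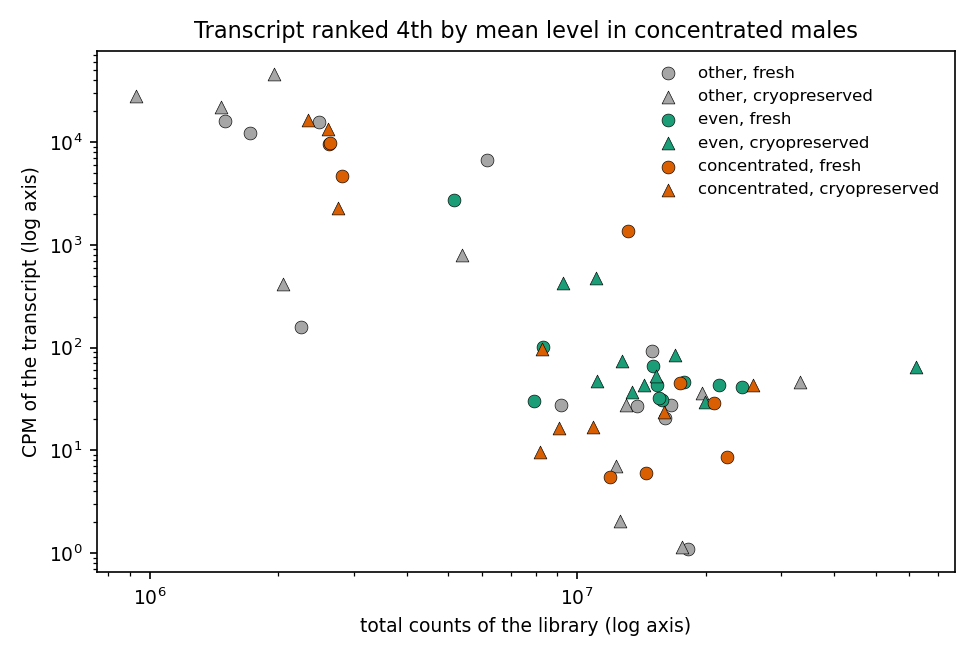
CPM of the transcript ranked 4 by mean level in concentrated males is plotted against total counts for all 60 libraries, both on log axes, with circles for fresh and triangles for cryopreserved libraries and colour for the class of the male. Concentrated libraries of 2823599 counts or fewer stand at 2264 CPM or more, and those of 8178950 or more at 97.1 CPM or less, except the fresh library of male 12 at 1363 CPM.

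The libraries of a male were more alike than libraries of different males. The root mean square difference of log2 CPM between the fresh and the cryopreserved library was 1.05 within males, from 0.65 in male 44 to 1.43 in male 22, and 1.33 between the fresh library of a male and the cryopreserved libraries of other males. The mean within males was as low or lower in a share of 0.00095 of all 362880 pairings of the 9 fresh with the 9 cryopreserved libraries (exact permutation test over pairings, one-sided, p = 0.00095), and without male 34 the exact permutation p was 0.0036. Depth and profile enter this distance, and both differed between the libraries of some males. With all libraries thinned to the total of the shallowest, the distance within minus between males was -0.18, against -0.27 before thinning (exact permutation test over pairings, one-sided, p = 1.1e-04 when thinned). The part of the profile was not tested. The partner was still the nearest of the other 17 libraries for only 3 of 18 libraries, and the nearest library was of the same treatment for 7.

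Males differed from each other somewhat more after cryopreservation, but the difference did not pass the threshold. The SD of log2 CPM over males was taken for each gene, and its median over genes was 0.59 before and 0.67 after the procedure. Of 22649 genes, 14733 varied more in cryopreserved sperm. Over genes, the ratio of these SDs had a median log2 of 0.21 (within-male exact permutation test, two-sided, p = 0.105) and 0.16 without male 34 (exact permutation p = 0.367). With all libraries thinned to the total of the shallowest it was 0.0067 (exact permutation p = 0.934). Without male 6 it was 0.24 (exact permutation p = 0.047), so the call turns on that male.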

How the data were processed

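Fresh and cryopreserved sperm have 1 table each, in which the authors deposited whole-number read counts by gene, not normalized. The submitters' processing notes list bedtools, TopHat2 2.1.1, Trimmomatic 0.39 and FastQC 0.11.6 without saying what each did. Genome build, gene models and the way reads were counted: not given in the sources used here. The 2 tables were joined by identifier. Libraries were paired by the male number of the labels, 0 count columns were unused, and the fresh column of male 43, with another trailing number than its label, was assigned by male and treatment. Chi-square over degrees of freedom was 5.79 for the closest pair of concentrated libraries, so each was kept as a sample. Identical counts in all 60 libraries were shared by 85 genes with another gene.

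The males, lists and tests were chosen with earlier results of these data known. Genes were kept by filterByExpr, scaled by TMM and tested on the counts with edgeR 4.0.16 (quasi-likelihood, R 4.3.3, male as block, Benjamini-Hochberg adjustment, called at 0.05). Alternatives used limma 3.58.1 and DESeq2 1.42.0. Levels per library are CPM of the deposited counts, and log2 CPM used TMM and a prior count of 2. Scaling moved the median log2 difference of all genes between 0.03 and 0.05. Genes named are up to 2 identifiers per direction with the smallest unadjusted p and an average log2 CPM of 3 or more. The pairing comes from the labels. P-values of the blocked and paired tests between treatments rest on how the differences within males vary between males. With 1 library per male and treatment, the error of a library is part of that variation. The precision of a level is limited by totals of 2340524 to 25876262 counts. The fits were tested on simulated data in which each gene was drawn separately, so shifts shared by the genes of a male were not covered. No batch is given in the labels.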

Additional observations from a re-analysis of the deposited data

Results flagged for a closer look

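Among 57 groups of 9 values, 7 held a value far from the rest (by Dixon's gap over range). Chance gives about 1 such group in 20 only for separate groups of normally distributed values. These groups share males and genes, so the 7 cannot be set against that rate. The fresh library of male 44 had a median gene of 6.70 CPM, against 3.90 CPM in the next. The CPM of the most abundant gene of a library was 12739 higher in the cryopreserved than in the fresh library of male 12, against 3771 in the next male. AUIFUG00000012771 stood apart in male 8, with 102.7 CPM in the fresh and 60.4 CPM in the cryopreserved library, and its log2 difference was lowest in male 22, at -2.36. The transcripts ranked 4 and 5 by mean level had their lowest log2 difference in male 8, at -8.67 and -8.80, against -2.16 in the next male for each. The effect of cryopreservation differed between concentrated and even males for 12 genes by the interaction test, of which 5 passed the filter on low counts only through the even males. With the genes that pass in concentrated males alone the count was 6, and the count over all genes ranged from 0 to 6704 when 1 male was left out.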

How the results depend on the processing

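With all 9 males, 0 genes were called without the replicate block (1612 at an unadjusted p under 0.05, against 3800 with it). The count was also 0 with limma voom, other size factors, no filter, a mean of 10 CPM or more and thinned libraries. It stayed at 0 with the median CPM as covariate and with identical genes entered once. DESeq2 called 545 with all 9 males. Other limits changed the males and gave 0 calls as well. A lower and a higher limit of the median CPM kept 6 and 10 males. Without a limit of the totals 12 males entered. A higher limit of the totals kept 5 males, without male 34, and edgeR called 0 of 27372 genes in them (smallest adjusted p = 0.12). Leaving out 1 male gave 0 to 611, all of the calls without male 34, where limma voom called 873, DESeq2 2574 and the fit with the covariate 1681. The count of genes whose effect differed between concentrated and even males was 12, and it was 0 against all males outside the rule, 4 with limma voom, 0 with a quality weight for each class, 212 with other size factors, 3 with the covariate, 6 among genes that pass the filter in concentrated males alone, and 0 to 6704 when 1 male was left out. The difference in genes detected ranged from -270.5 to 851.3 when 1 male was left out, and it turned negative without male 16 (-56.1) or male 22 (-270.5). In thinned libraries this difference was 1146. The ratio of spread ranged from 0.12 to 0.32 when 1 male was left out and passed the threshold without male 6, at 0.24, and it was 0.0067 in thinned libraries. The causes were not tested. Libraries of 2340524 counts limit what can be seen of genes near 1 CPM, and the interval of the fold change reached 2-fold for most of the least abundant class. Within a single male, with 1 library per treatment, the procedure cannot be told apart from the error of a library. The direction of the difference in depth, median CPM and share of the 10 most abundant genes, and that of the distance within males, was the same under each alternative run. For the share of the 10 most abundant genes the mean difference fell from 0.39 to 0.01 percentage points without male 12, and 5 of 9 males had a lower share after cryopreservation.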
